A study of Mus musculus with 18 samples.

Results

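RNA that came down with an antibody to Kif5A from axoplasm of mouse sciatic nerve was compared, transcript by transcript and gene by gene, with RNA recovered with its isotype control. The comparison used 6 of the 18 libraries of the series: 3 Kif5A precipitates and 3 IgG precipitates, with the 3 inputs, RNA of the axoplasm before precipitation, set beside them. All named transcripts of the sciatic nerve count table were taken, 18830 in number, of 13555 genes, and 1952 of these transcripts were not in the dorsal root table. Every animal was a C57B6 mouse with no genetic change stated in the labels, and ages were not given in the sources used here. Each library stands for 1 of 3 independent repeats, and each repeat pooled 5 animals. Per the labels, 10 ug of rabbit antibody, anti-Kif5A in the Kif5A group and nonspecific IgG in the IgG group, was left for 3 h in about 200 ug of lysate. Libraries were made with SMART-Seq v4, which amplifies full-length cDNA from small amounts of RNA by PCR.

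Kif5A is 1 of the heavy chains of kinesin-1, a motor that walks along microtubules and carries cargo away from the cell body. In long sensory axons, cargo includes particles of mRNA and RNA-binding proteins, organelles, cytoskeletal proteins and vesicles, and heavy chains bind them directly, through light chains or through adaptors. A precipitate holds what is bound to the antibody's target, what is bound to those partners and what sticks to antibody or beads, and the isotype control measures the last of these.

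The Kif5A libraries held 14658466, 19897848 and 17297357 counts of named transcripts, the IgG libraries 21774833, 21323159 and 22580824, and the inputs 16900707, 12256188 and 20249552. Although the IgG libraries had the most counts, 8.19% to 10.5% of genes had no count in them, against 1.45% to 2.91% in Kif5A libraries. The IgG libraries also resembled one another less. Correlations were taken of log2(CPM + 1) across genes, where genes are not independent replicates. They were 0.906 to 0.947 among the Kif5A libraries and 0.826 to 0.834 among the IgG libraries. Between Kif5A and IgG libraries they were 0.826 to 0.893, a range that holds the range among the IgG libraries. CPM is here a gene's or transcript's count relative to the library's total of named transcripts, on the usual scale and not corrected for length. Axoplasm of the nerve was not free of RNA of other cells. Genes of adipocytes summed to 22838, 27921 and 8842 CPM in the inputs, and of the 27 listed genes of sensory neurons 10 were in the table, among them Calca and Ret, while Isl1 had no count in any precipitate.

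No gene passed the test between the precipitates. In the edgeR quasi-likelihood test, 0 of 12594 genes tested had an adjusted p under 0.05 (0% called, smallest adjusted p = 0.213). Before adjustment, p was under 0.05 for 548 genes (4.35%) higher with Kif5A and 306 (2.43%) lower, and with library size as the only scaling these were 614 and 213. By DESeq2 they were 658 higher and 615 lower. They were 422 and 189, 481 and 200, and 523 and 170 without Kif5A replicate 1, 2 and 3, and 1052 and 385, 1029 and 257, and 1273 and 471 without IgG replicate 1, 2 and 3. The lowest Kif5A library lay above the highest IgG library for 1339 genes (10.6%), and the highest Kif5A library lay below the lowest IgG library for 625 (4.96%). DESeq2 called 264 of 12250 genes (2.16%) and limma-voom 0. A fit that added the inputs to the estimate of the spread called 1, Brf2. Levels and ratios below therefore describe these libraries, and none of the named genes changed by the main test.

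The ratios were lopsided by level. Among the genes higher at an unadjusted p under 0.05 the median log2 ratio was 4.16, and the median of their mean levels was 6.06 CPM with Kif5A, 0.206 CPM with IgG and 4.01 CPM in input. Of the 548, 198 had at most 3 counts over the 3 IgG libraries together and 105 had none, whereas 503 had counts in every input. Their mean IgG level lay below all 3 inputs for 431, and their mean Kif5A level lay above all 3 inputs for 308. A gene with so few IgG counts enters the test only through its Kif5A libraries, so these numbers describe the genes and support nothing further. Over all genes tested, the mean IgG level lay below all inputs for 2916 and the mean Kif5A level above all inputs for 5004.

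Genes lower with Kif5A were of another kind. Their median levels were 24.1 CPM with Kif5A, 61.3 CPM with IgG and 21.4 CPM in input, with a median log2 ratio of -1.43. For 287 of the 306 the mean IgG level stood above all 3 inputs, as it did for 4929 of all 12594 genes tested. Genes picked for a higher IgG level are more likely to show this, so the 287 describe the genes and support nothing further. Among the 3148 genes with the lowest mean level, 290 were higher and 30 lower with p under 0.05 before adjustment. Among the 3149 with the highest level, 96 were higher and 98 lower. Counts of 0 were as lopsided: 185 genes had counts in all 3 Kif5A libraries and none with IgG, and 1 gene, Gm13715, had the reverse.

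**Figure D1:**
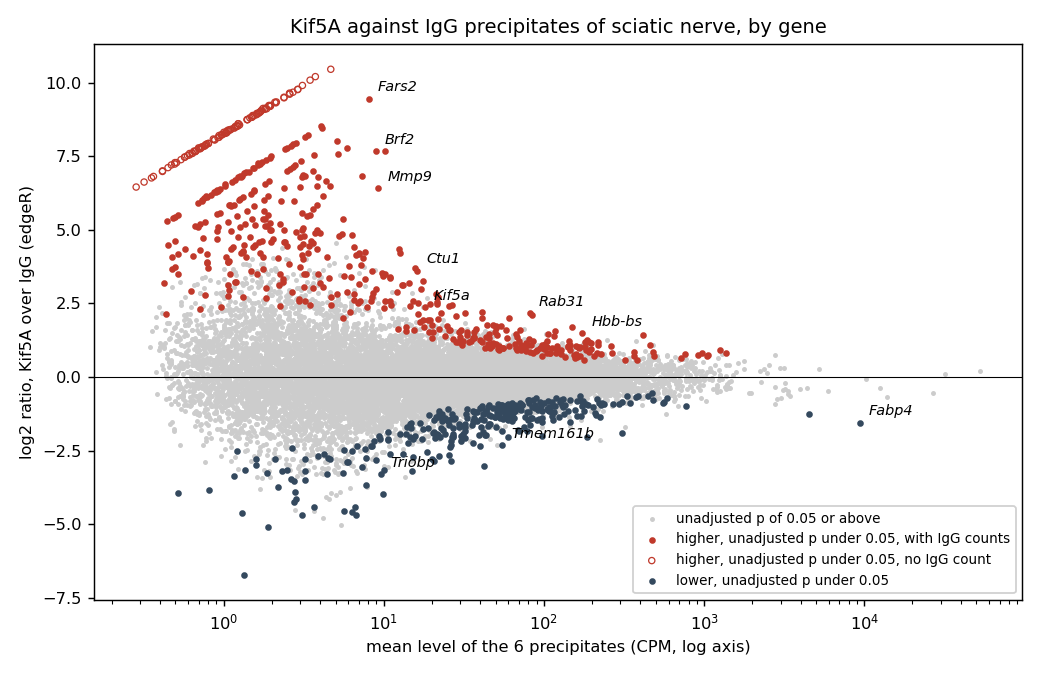
Log2 ratio of Kif5A over IgG (y axis) against the mean level of the 6 precipitates in CPM (x axis, log scale) for the 12594 genes tested, 1 point each; filled red points are higher and dark blue points lower at an unadjusted p under 0.05, and open red circles are higher genes without an IgG count, whose plotted ratio depends on the prior count. The upper left holds the low-level genes with few IgG counts, and at the right the points narrow around 0.

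The mRNA of the precipitated motor itself was among the higher ones. Kif5a (chromosome 10, 127225696 to 127263348) stood at 14.9, 22.1 and 53.9 CPM in the Kif5A libraries, 4.5, 6.28 and 6.24 CPM in the IgG libraries and 7.87, 9.79 and 18.2 CPM in input. Every Kif5A library lay above every IgG library, and replicate 3 was the highest of the Kif5A libraries. The log2 ratio was 2.37 (SE 0.70), with an adjusted p of 0.375 in edgeR's test, and without Kif5A replicate 3 the ratio was 1.59. The antibody binds the protein, so this mRNA is no check of the precipitation.

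The other kinesin-1 chains follow, and the list summed to 719, 719 and 784 CPM with Kif5A, 569, 503 and 676 with IgG and 772, 719.7 and 465 CPM in input. Kif5c, the other neuronal heavy chain, stood at 72.2, 112 and 96.3 CPM with Kif5A, 48.7, 49.1 and 73.2 with IgG and 47, 30.8 and 68 CPM in input, and its groups overlapped. Kif5b, the widely expressed heavy chain, stood at 565, 525 and 558 CPM with Kif5A and 442, 398 and 538 CPM with IgG, again with overlap. Of the light chains, which link heavy chains to cargo, Klc4 stood at 53.8, 49.3 and 64.2 CPM with Kif5A and 45.4, 45.7 and 48.6 CPM with IgG, and its inputs at 16.5, 14 and 39.6 CPM. For Klc4 the lowest Kif5A library lay just above the highest IgG library, with a log2 ratio of 0.19 (SE 0.35). Of the 5 tested chains 4 had a positive ratio, with a median log2 ratio of 0.19. The exception was Klc1, which stood at 12.2, 10.7 and 12.1 CPM with Kif5A and 28.4, 4.36 and 9.74 CPM with IgG. The 3 Kif5A libraries were alike and IgG replicate 1 was far above the others: the log2 ratio of -0.37 became 0.67 without that library.

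Of mRNAs known from work on local translation in injured axons, 3 are given first. Kpnb1, which encodes importin beta, stood at 298, 289.5 and 291 CPM with Kif5A and 170.2, 244 and 227 CPM with IgG, so that all Kif5A libraries were higher (log2 0.38, SE 0.25, adjusted p = 0.879 by edgeR). Mtor, a growth-controlling kinase, stood at 49.7, 57.7 and 37.2 CPM with Kif5A and 82.3, 144 and 40.2 CPM with IgG, and its groups overlapped through IgG replicate 3. Ncl, the RNA-binding protein nucleolin, stood at 388, 524 and 423 CPM with Kif5A and 559, 523 and 457 CPM with IgG. Of the 24 tested members of a list of mRNAs described in axons, 13 had a positive ratio and 0 an unadjusted p under 0.05, and the median log2 ratio was 0.10, against -0.035 for all genes. Without Kif5A replicate 3 that median was -0.12.

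The 12 genes with the smallest p among those of at least 5 CPM with Kif5A and no overlap began with Brf2, a subunit of the initiation factor of RNA polymerase III (chromosome 8, 27123364 to 27128680). It stood at 21.8, 17.7 and 13.6 CPM with Kif5A, 0.0459, 0.0469 and 0.133 with IgG and 7.99, 7.75 and 11.5 CPM in input. The Kif5A libraries were above the inputs, and the IgG libraries held 1, 1 and 3 counts. The log2 ratio was 7.68 (SE 1.03, adjusted p = 0.213; edgeR), and the adjusted p was 0.0391 in the fit that included the inputs.

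Fars2 and Ctu1 were also among the 12. Fars2, which charges mitochondrial tRNA with phenylalanine (chromosome 13, 36117412 to 36726280), stood at 28.7, 14.4 and 5.2 CPM with Kif5A, 0, 0.0469 and 0 with IgG and 3.31, 2.04 and 14.6 CPM in input. The spread among its Kif5A libraries was wide, and IgG held 1 count in all. The ratio of its summed levels was 1010, with an exact 95% Poisson interval of 181 to 39900 that covers counting error only. Ctu1, part of the enzyme that adds sulfur to the wobble base of tRNA (chromosome 7, 43672016 to 43678298), stood at 32.3, 24.8 and 32.7 CPM with Kif5A, 1.65, 1.27 and 4.12 with IgG and 25.3, 5.87 and 20.7 CPM in input. Its Kif5A libraries were close together, and 2 of the 3 inputs lay near them. The log2 ratio was 3.61 (SE 0.72, adjusted p = 0.213; edgeR). Brf2 and Fars2 are members of lists that went no common way: of 30 aminoacyl-tRNA synthetases 8 were positive (median log2 -0.29), and of 19 genes of RNA polymerase III and its factors 9 were positive. In the polymerase III list, Gtf3c3 and Gtf3c1, subunits of another of its initiation factors, lay lower; Gtf3c3 stood at 4.57, 11.8 and 8.73 CPM with Kif5A and 29.7, 43.5 and 27.4 CPM with IgG, and Gtf3c1, named after its values were seen, at 32.5, 36.3 and 37.3 CPM and 106, 59.2 and 59.9 CPM.

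A pair of small GTPases of membrane traffic were among the 12. Rab31, which acts between the Golgi and endosomes (chromosome 17, 65651729 to 65772752), had the highest IgG level of the 12 after a globin. It stood at 183, 93.7 and 126 CPM with Kif5A, 29.3, 22.7 and 32.7 with IgG and 59, 53.6 and 93.5 CPM in input. Each Kif5A library was above each IgG library and above each input (log2 2.17, SE 0.38, adjusted p = 0.213; edgeR). Rab15, of endocytic recycling (chromosome 12, 76797960 to 76822908), stood at 6.48, 18.5 and 10.4 CPM with Kif5A, 0, 0.0469 and 0.0886 with IgG and 3.79, 2.2 and 6.32 CPM in input. IgG held 3 counts in all, and the ratio of summed levels was 272 (92.6 to 1320).

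Mmp9 and Saa3, also of the 12, encode secreted proteins. Mmp9, a protease that cuts extracellular matrix (chromosome 2, 164940780 to 164955850), stood at 20.3, 9.05 and 25.4 CPM with Kif5A, 0.0918, 0.422 and 0.0886 with IgG and 4.2, 6.45 and 6.81 CPM in input. All inputs lay between the groups. The log2 ratio was 6.41 (SE 1.13, adjusted p = 0.213; edgeR). Neutrophils store the Mmp9 protein, and of the other 5 neutrophil genes tested 4 had a negative ratio. Elane, the neutrophil elastase, stood at 3.96, 1.16 and 0.0578 CPM with Kif5A, 19.7, 13.8 and 5 with IgG and only 0.118, 0.0816 and 0.148 CPM in input. Which cells the Mmp9 RNA came from was not tested. Saa3, an acute-phase serum amyloid (chromosome 7, 46711998 to 46715700), stood at 6.48, 5.93 and 3.06 CPM with Kif5A and 1.42, 0.898 and 0.79 CPM in input and had no count with IgG. It was at least 112-fold higher with Kif5A than the floor of 3 counts over the IgG group.

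The others of the 12 were low in all libraries except Hbb-bs, a beta globin (chromosome 7, 103826534 to 103828096), at 311, 237 and 234 CPM with Kif5A, 107, 73.1 and 82.2 with IgG and 721, 667 and 633 CPM in input. For this gene the inputs were the highest of all. Fhl4, a LIM domain protein, stood at 5.87, 7.74 and 6.59 CPM with Kif5A and Zfp647, a zinc finger protein, at 6.69, 7.19 and 3.01 CPM, with 1 IgG count each. Nme7, a relative of nucleoside diphosphate kinases, stood at 6, 2.81 and 15.5 CPM with Kif5A, 0.0459, 0 and 0 with IgG and 3.49, 3.43 and 10.8 CPM in input, so its inputs lay within the range of the Kif5A libraries. Fam110c (chromosome 12, 31073861 to 31080251), of which no transcript was in the dorsal root table, stood at 11.9, 13.6 and 2.43 CPM with Kif5A and 1.6, 1.88 and 0.0494 CPM in input, with no IgG count, at least 206-fold higher; replicate 3 was the lowest in both Kif5A and input.

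In the other direction, 7 of the 8 genes of smallest p are described, and in all 7 the IgG level lay above Kif5A and above every input. Tmem161b, a membrane protein (chromosome 13, 84222296 to 84296141), stood at 28.8, 16.6 and 12.4 CPM with Kif5A, 116, 93.3 and 62.5 with IgG and 22, 33.6 and 7.7 CPM in input (log2 -2.32, SE 0.46, adjusted p = 0.213; edgeR). Kif5A and input overlapped, and IgG stood apart. Triobp, an actin-bundling protein (chromosome 15, 78947724 to 79005869), had the largest difference of the 7, at 0.75, 2.26 and 2.49 CPM with Kif5A, 19.6, 13.9 and 19 with IgG and 3.96, 4.9 and 2.47 CPM in input (log2 -3.31, SE 0.82). The authors' log2 fold change was -3.75 for 1 of its 2 tested transcripts and -0.55 for the other.

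The others of the 7 follow. Flt3l, a cytokine for blood cell precursors, stood at 3.14, 5.08 and 4.34 CPM with Kif5A, 16.1, 37.4 and 25.6 with IgG and 3.2, 4.81 and 3.7 CPM in input. Capn6, a calpain relative without protease activity that binds microtubules, stood at 32.1, 22.2 and 20.3 CPM with Kif5A, 69.1, 87.7 and 70.1 with IgG and 44.2, 37.8 and 18 CPM in input. In both, Kif5A and input overlapped. Egfl7, a protein that endothelial cells secrete (chromosome 2, 26580014 to 26593120), stood at 39.2, 35.7 and 24.6 CPM with Kif5A, 99.8, 78.3 and 81 with IgG and 11.8, 7.18 and 19.9 CPM in input. Tmem88, a membrane protein that dampens Wnt signalling, stood at 40.05, 40.6 and 16.8 CPM with Kif5A, 128, 126 and 69.2 with IgG and 11.7, 15.9 and 13.1 CPM in input. For these last 2 genes Kif5A lay between IgG and input. Cdr1 (chromosome X, 61184005 to 61185558) stood at 63.4, 76.3 and 76.5 CPM with Kif5A, 141, 154 and 231 with IgG and 48.4, 52.7 and 21.4 CPM in input; an RNA is made from its opposite strand, and since counting was not stated to use strand the RNAs of both strands cannot be told apart.

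**Figure D2:**
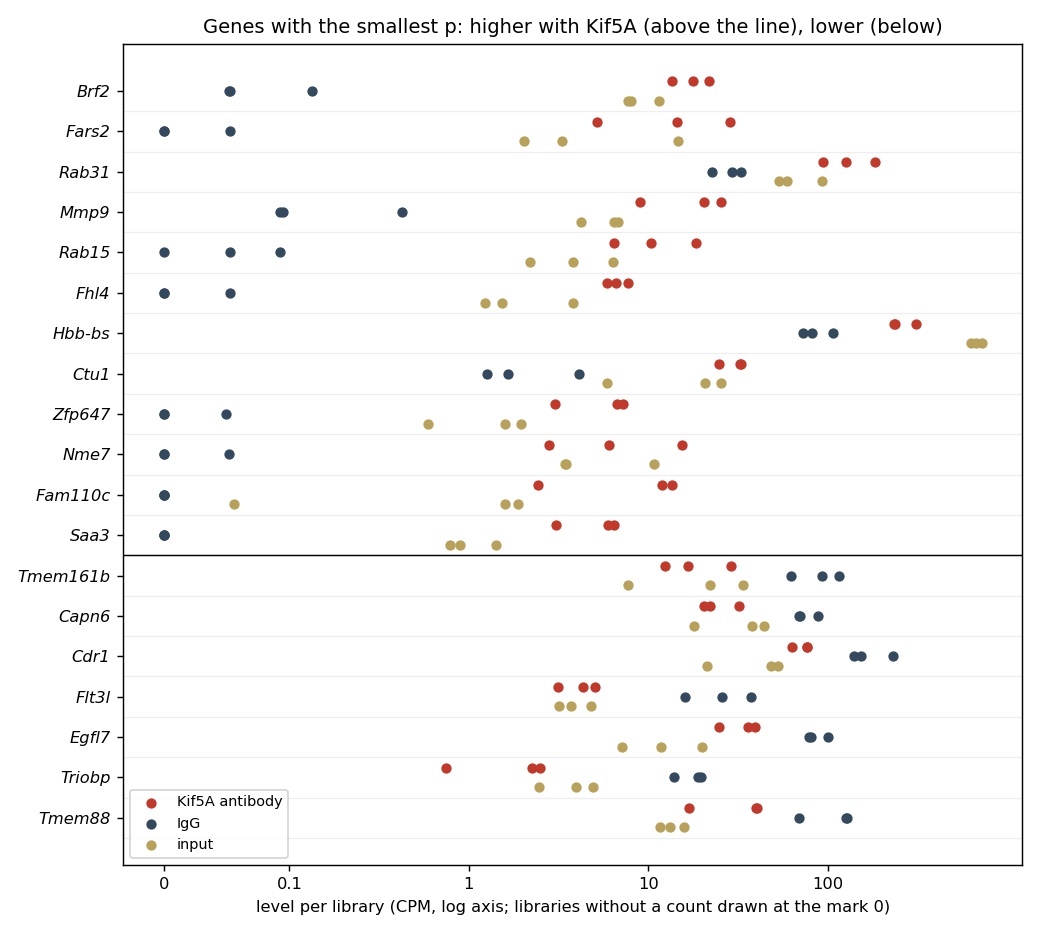
Level in CPM per library (x axis, log scale, with libraries without a count at the mark 0) of the 12 genes higher and the 7 genes lower with Kif5A that the text describes; red points are Kif5A, dark blue points IgG and ochre points input libraries, 3 each. In the upper block most IgG points lie at or near 0 while the inputs lie near the Kif5A points, and in the lower block the IgG points lie to the right of both.

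Transcripts of the same gene were then compared, since the files count each Ensembl transcript. No transcript passed: 0 of 16767 tested (0% called, smallest adjusted p = 0.14 by edgeR), p before adjustment was under 0.05 for 850 (5.07%) higher and 318 (1.9%) lower, and DESeq2 called 527 (3.25%). In the authors' deposited table, 1130 named transcripts (6%) had a false discovery rate under 0.05 and a positive fold change and 136 (0.722%) a negative one. The authors' shares are of all 18830 named transcripts, more than the 16767 left by the filter on low counts here. Of those 1130, 840 had at most 3 IgG counts over the 3 libraries. In the edgeR test here 606 of the 1130 had an unadjusted p under 0.05. Transcripts with counts in all 3 Kif5A libraries and none with IgG numbered 434, and 298 of them also had counts in all 3 inputs. Transcripts in all 3 Kif5A libraries with no count in any IgG or input library numbered 14, those in all IgG libraries alone 1, of Rbm5, and those in all inputs alone 18.

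Some of the transcripts with the smallest p were annotated as running on into what other transcripts of the gene remove as an intron. For 3 of them the junction is shown, on the transcript's strand and from GENCODE M21 (GRCm38): the last 30 bases of the shared coding exon in lower case, then in capitals 60 bases that are in no other transcript of the gene. They are printed because in the annotation these capitals set the transcript apart from the gene's other transcripts. Unspliced RNA of the gene would hold them too, and how reads were assigned to transcripts was not given, so they do not settle where a count belongs. Each run of capitals opens with GT, the usual first bases of an intron.
Psip1, chr4:83463535-83463624, minus strand: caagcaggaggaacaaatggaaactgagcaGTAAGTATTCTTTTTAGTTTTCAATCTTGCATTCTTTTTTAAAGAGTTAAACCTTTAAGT
Map4k5, chr12:69845621-69845710, minus strand: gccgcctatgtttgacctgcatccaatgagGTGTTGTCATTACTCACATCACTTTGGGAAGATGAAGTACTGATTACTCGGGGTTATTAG
Rnf215, chr11:4136768-4136857, plus strand: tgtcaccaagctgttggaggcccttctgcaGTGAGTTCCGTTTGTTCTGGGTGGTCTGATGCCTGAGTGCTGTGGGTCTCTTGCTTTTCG

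Psip1 encodes a chromatin protein that tethers factors to active genes. The transcript shown (retained intron) stood at 4.16, 7.84 and 7.46 CPM with Kif5A, 0, 0 and 0.0443 with IgG and 2.49, 4.65 and 1.73 CPM in input. IgG held 1 count in all, and the ratio of summed levels was 438 (78.1 to 17400). The main protein-coding transcript of Psip1 stood at 157, 129 and 105 CPM with Kif5A and 119, 66.4 and 110.3 CPM with IgG, a log2 ratio of 0.34 (SE 0.33), with overlap. The transcript of Map4k5, a kinase of stress signalling, stood at 7.03, 11.7 and 5.67 CPM with Kif5A, 0.0459, 0.0469 and 0.133 with IgG and 12.7, 13.5 and 3.01 CPM in input, and 2 of the inputs were above all Kif5A libraries. The transcript of Rnf215, a RING finger protein, annotated as a processed transcript, stood at 1.43, 1.06 and 1.04 CPM with Kif5A and had no count with IgG or in input, at least 25.3-fold higher than the IgG floor. Its protein-coding partner stood at 74.5, 61.6 and 89.7 CPM with Kif5A, 36.6, 36.1 and 81.1 with IgG and 36.1, 43.7 and 44.3 CPM in input.

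The other named transcripts had the same shape. A retained-intron transcript of Hdac1, a histone deacetylase, stood at 1.43, 1.06 and 0.983 CPM with Kif5A and, like that of Rnf215, had no count with IgG or in input. Zmpste24, the protease that matures lamin A, had a processed transcript at 1.57, 1.41 and 1.45 CPM with Kif5A and 1.83, 2.61 and 0.395 CPM in input and none with IgG. Its protein-coding transcript stood at 91.7, 87.4 and 92.1 CPM with Kif5A and 28, 54.5 and 68.2 CPM with IgG, higher in every Kif5A library. Protein-coding transcripts of Dnpep, an aminopeptidase, and Gtf2e2, a subunit of a general transcription factor, stood at 0.819, 1.01 and 0.925 CPM and 1.16, 0.955 and 0.809 CPM with Kif5A, again with no IgG count.

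Whether transcripts of 1 gene differ in their ratio of Kif5A over IgG was tested over 2760 genes with at least a pair of tested transcripts. Of these, 119 (4.31%) had an adjusted p under 0.05 in edgeR's test of transcript usage. Among the 2760 genes, 198 had a transcript with at most 3 IgG counts and 5 one with at most 3 Kif5A counts; among the 119 these were 117 and 2. The genes called without a transcript so low in IgG were Arsa and Adipor2. Arsa was 1 of the 2 with a transcript of at most 3 Kif5A counts, so the limit below holds for it with the groups exchanged. Adipor2 had no transcript so low in either group. A transcript with so few IgG counts entered the test only through its Kif5A libraries and had to differ, so the 117 calls describe where IgG counts were near 0 and support no difference in usage. The number of calls also hung on single libraries: 0 genes were called without Kif5A replicate 1 and 0 without Kif5A replicate 2, 85 without Kif5A replicate 3, and 245, 213 and 297 without IgG replicate 1, 2 and 3. The 6 genes with the smallest p are given as levels alone. Birc2, an inhibitor of apoptosis, had a main transcript at 107, 95.7 and 55.7 CPM with Kif5A and 114, 84.6 and 117 CPM with IgG, and a short one at 3, 3.17 and 3.64 CPM with Kif5A, no IgG count and 0.414, 0.163 and 0.0988 CPM in input. The short transcript lay outside the main one (chromosome 9, 7836687 to 7837064, against chromosome 9, 7818236 to 7835255), and its Kif5A libraries were above all inputs. Cse1l, which recycles importin alpha out of the nucleus, had its coding transcript at 11.3, 16.3 and 16.5 CPM with Kif5A and 20.7, 25.4 and 26.3 CPM with IgG, lower in every Kif5A library. Its retained-intron transcript stood at 2.39, 1.06 and 1.16 CPM with Kif5A, with no IgG count. Ahctf1, a protein of the nuclear pore, had a coding transcript with overlap and a retained-intron transcript at 3.62, 1.91 and 2.54 CPM with Kif5A, no IgG count and 2.37, 2.69 and 0.395 CPM in input. Cys1, Rab34 and Man2b2 completed the 6, each with a transcript without an IgG count.

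**Figure D3:**
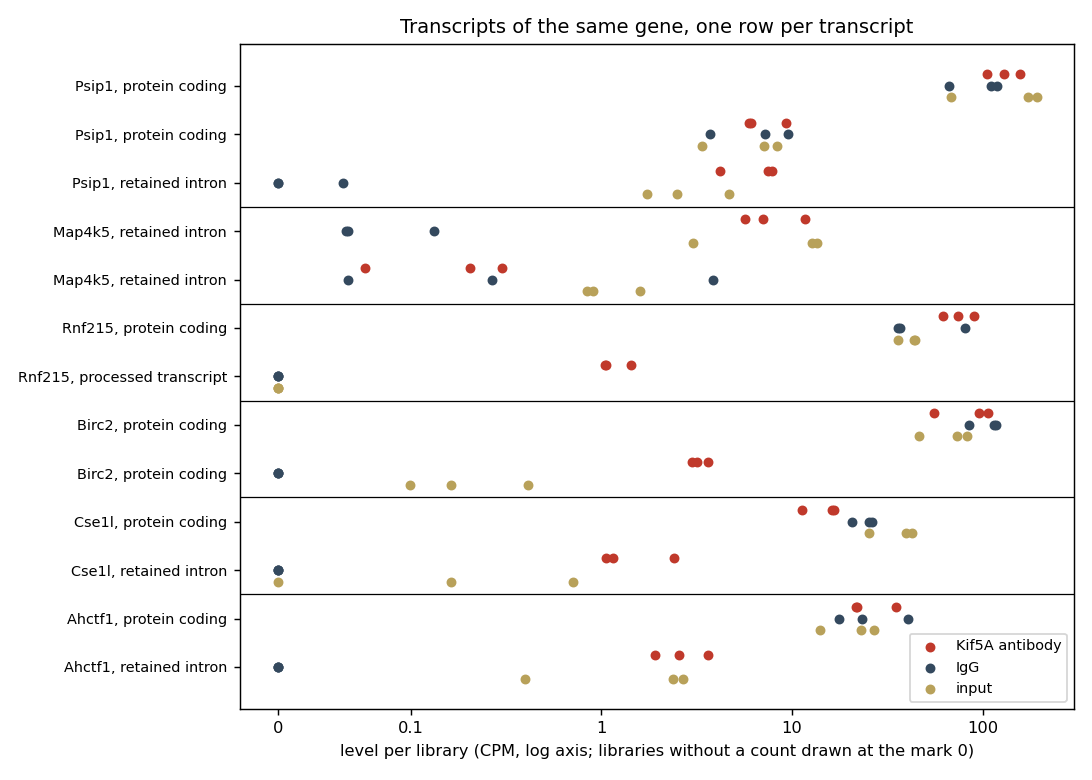
Level in CPM per library (x axis, log scale, with libraries without a count at the mark 0) of the transcripts of 6 genes, 1 row each with its GENCODE M21 class; red points are Kif5A, dark blue points IgG and ochre points input libraries, 3 each. For each gene except Map4k5 the dark blue points lie close to the red ones in the row of the main transcript, and at or near 0 in the row of 1 other transcript.

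Transcript class, length and GC content were given no test. Retained-intron transcripts made up 14.79% of the transcripts higher at an unadjusted p under 0.05, 13.33% of those lower and 12.8% of all tested. The median length was 2380 bases in the higher set, 2261 bases in the lower set and 2303 bases over all tested, and the median GC content 50.3%, 49.3% and 49.8%. The 401 tested transcripts with at most 3 IgG counts had a median length of 1671 bases; 17.79% were retained-intron and 54.64% protein-coding transcripts, and protein-coding ones were 71.24% of all tested.

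Of the 858 genes with no transcript in the dorsal root table, 529 were tested. Before adjustment p was under 0.05 for 52 (9.83%) higher and 15 (2.84%) lower, against 4.35% and 2.43% of all genes and 9.21% and 0.953% of the 3148 genes with the lowest mean level. They were low: the median level over the 9 libraries was 0.890 CPM, against 12.7 CPM for all genes. Of the 529, 230 had a positive ratio and the median log2 ratio was -0.31. Named ones beside Fam110c included Btnl1, a butyrophilin-like membrane protein, at 4.23, 4.17 and 2.43 CPM with Kif5A and 1.18, 0.979 and 1.68 CPM in input, and Nr1h4, the bile acid receptor, at 1.71, 0.955 and 1.16 CPM with Kif5A and 0.296, 0 and 0.543 CPM in input. Neither had an IgG count; the bounds were at least 79-fold and 27-fold higher. Xkr7, at 2.05, 1.16 and 1.21 CPM, and BC028777, at 2.11, 1.06 and 0.809 CPM with Kif5A, had none either. Fam167a stood at 6.14, 4.47 and 9.77 CPM with Kif5A, 0.0918, 0.188 and 0.133 with IgG and 3.91, 5.06 and 1.23 CPM in input (log2 5.51, SE 1.19).

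Gene lists were read by their members' counts and medians, with an unadjusted p under 0.05 for 4.35% of all genes higher and 2.43% lower, and no member of any list passed the adjusted test. Of 22 tested genes of the axonal cytoskeleton 19 had a positive ratio, with a median log2 ratio of 0.63, and p before adjustment was under 0.05 for 3 higher and 0 lower. Tubb3, the neuronal beta tubulin, stood at 5.25, 3.32 and 3.82 CPM with Kif5A, 0.643, 0 and 0.0443 with IgG and 5.03, 5.39 and 2.47 CPM in input. Its Kif5A libraries lay within the range of the inputs, and 2 of the IgG libraries were at or near 0. Map6, which stabilises microtubules, stood at 14.1, 3.62 and 4.1 CPM with Kif5A, 0.321, 0.281 and 1.64 with IgG and 5.74, 3.02 and 6.72 CPM in input. Tuba1b, an alpha tubulin with near copies and named after its values were seen, stood at 1205, 1113 and 1629.7 CPM with Kif5A and 741, 639 and 952 CPM with IgG. The list's summed level overlapped, at 3841, 3836 and 5788 CPM with Kif5A and 2309, 2654 and 4147 CPM with IgG, and its median was between 0.32 and 0.88 when single libraries were left out.

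Presynaptic and dense-core vesicle genes held several members at or near 0 in IgG. Of 21 tested, 16 had a positive ratio (median log2 0.37; 0.09 without IgG replicate 1 and 1.05 without IgG replicate 3), and p before adjustment was under 0.05 for 4 higher and 1 lower. Chga, a granin that packs dense-core vesicles (chromosome 12, 102554969 to 102565028), stood at 1.3, 1.91 and 2.14 CPM with Kif5A, 0, 0 and 0.0443 with IgG and 0.828, 0.245 and 3.51 CPM in input, and IgG held 1 count in all. Dnm1, the neuronal dynamin of endocytosis, which stood at 0.546, 0.754 and 1.68 CPM with Kif5A, no IgG count and 0, 0 and 0.247 CPM in input, was named after its values were seen. Rab15 was another of the 4. Snap25, the SNARE of synaptic vesicle fusion (chromosome 2, 136713453 to 136782428), went the other way, at 31.4, 24.2 and 30.7 CPM with Kif5A, 72.8, 68 and 70.5 with IgG and 27.7, 29.2 and 24.2 CPM in input. All its IgG libraries were above all other libraries (log2 -1.36, SE 0.36, adjusted p = 0.259; edgeR). Of 8 tested genes of sensory neurons, 3 had a positive ratio, with a median of -0.22, or 0.06 without IgG replicate 3.

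In the lists of motors and RNA carriers few members stood apart. Among 28 other kinesins and adaptors 13 had a positive ratio (median log2 -0.03). Mapk8ip1, which links kinesin-1 to cargo, stood at 7.57, 10.2 and 6.3 CPM with Kif5A, 0.505, 1.55 and 2.17 with IgG and 12, 10.4 and 11.5 CPM in input. Kif18a, a mitotic kinesin, stood at 0.887, 2.36 and 0.347 CPM with Kif5A and 19.8, 13.6 and 9.12 CPM with IgG, while its inputs stood at 3.31, 1.88 and 1.53 CPM. Among 25 genes of dynein and dynactin 14 had a positive ratio (median 0.11). Nde1, a dynein regulator, stood at 6.07, 6.28 and 3.01 CPM with Kif5A and 0.643, 0.938 and 0.797 CPM with IgG. Dync1h1, of the same list, leaned the other way, at 166, 340 and 148 CPM with Kif5A and 313, 444 and 336 CPM with IgG. Its groups overlapped. Among 32 proteins of RNA granules and transport 18 had a positive ratio (median 0.04). Stau2, which binds double-stranded RNA in neuronal transport particles (chromosome 1, 16228674 to 16520112), stood at 4.3, 1.86 and 2.95 CPM with Kif5A and 7.22, 3.59 and 2.96 CPM in input with no IgG count, at least 63.8-fold higher. Hnrnpa2b1, which binds transport signals in mRNA, stood at 394, 545 and 439 CPM with Kif5A and 537, 956 and 627 CPM with IgG, and its groups overlapped in part.

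Lists of the translation machinery went different ways. Of 82 cytosolic ribosomal protein genes 27 had a positive ratio (median log2 -0.24), and that median was 0.08 without Kif5A replicate 1 and 0.07 without IgG replicate 3. Before adjustment p was under 0.05 for 1 higher and 1 lower. Rpl12 stood at 23.7, 26.7 and 22.3 CPM with Kif5A and 38.8, 64 and 54.6 CPM with IgG, lower in every Kif5A library. Rpl7l1 went the other way, at 165, 134 and 184 CPM with Kif5A and 117, 73.9 and 45 CPM with IgG. Of 74 mitochondrial ribosomal protein genes 21 had a positive ratio (median -0.19). Of 64 translation factors 35 had a positive ratio (median 0.04), and p before adjustment was under 0.05 for 3 higher and 1 lower. Without overlap, 6 members were higher and 1 lower, against 10.6% and 4.96% of all genes tested. The summed level of the translation factors was 12024, 12193 and 14993 CPM with Kif5A, 10355, 11027 and 11526 with IgG and 13603, 12174 and 15724 CPM in input, higher in each Kif5A library than in each IgG library. Eef2, the factor that moves the ribosome along, stood at 1824, 1531 and 1965 CPM with Kif5A and 864, 753 and 1260.4 CPM with IgG, and Eif4h, a helper of the initiation helicase, at 599, 519 and 721 CPM and 428, 314 and 326 CPM; both were named after their values were seen. The third, Eef1d, an exchange factor of elongation, had no IgG count and 0.887, 1.96 and 1.16 CPM with Kif5A. Eif5b, which joins the ribosomal subunits, was the lower one, at 296, 521 and 391 CPM with Kif5A and 693, 688 and 720.3 CPM with IgG.

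Respiratory chain genes leaned lower. Of 80 tested, 17 had a positive ratio, with a median log2 ratio of -0.32, and p before adjustment was under 0.05 for 0 higher and 4 lower. Ndufc2, of complex I, stood at 162, 196 and 127 CPM with Kif5A, 299, 339.6 and 243 with IgG and 165, 126 and 129 CPM in input. Cox8b, of complex IV, stood at 24.2, 77.4 and 24.1 CPM with Kif5A and 127, 125 and 113 CPM with IgG. In both genes every IgG library was above every Kif5A library. The other 2, named after their values were seen, were Atp5h and Ndufa9, and the median stayed between -0.20 and -0.44 when single libraries were left out. Of 46 proteasome genes 18 had a positive ratio (median -0.10), and Psmd9, an assembly chaperone, stood apart at 75.9, 87.1 and 131 CPM with Kif5A and 37.1, 18.3 and 14.9 CPM with IgG (log2 2.00, SE 0.49). Of 8 genes of the COG complex, which tethers Golgi vesicles, 2 were positive (median -0.42), and Cog1 stood at 19.2, 4.52 and 6.82 CPM with Kif5A, 0, 0.0938 and 0 with IgG and 4.5, 4.65 and 6.57 CPM in input.

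Genes of other cells in the nerve are given beside these. Their ratios compare RNA recovered in the 2 kinds of precipitate and measure neither numbers of cells nor RNA per cell. What set these ratios was not tested. Of 24 genes of myelinating Schwann cells 19 had a positive ratio (median log2 0.53), with 0 at an unadjusted p under 0.05. Their summed level was 9455, 15228 and 34529 CPM with Kif5A, 8464, 12495 and 31223 with IgG and 24382, 27294 and 32326 CPM in input. Replicate 3 was highest in both precipitates, and the list's median was -0.16 without Kif5A replicate 3. Of 19 adipocyte genes 1 had a positive ratio (median -0.67), and their summed level was 97305, 67813 and 13418 CPM with Kif5A, 126495, 90493 and 43965 with IgG and 22838, 27921 and 8842 CPM in input. Fabp4, a fatty acid carrier, stood at 6605, 7374 and 1162 CPM with Kif5A, 16273, 15657 and 9264 with IgG and 2532, 2464 and 566 CPM in input. Here replicate 3 was lowest in each of the 3 groups, and the median was -0.21 without Kif5A replicate 3 and -1.34 without Kif5A replicate 1.

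Of the 30 lists, 6 had summed levels that did not overlap between the precipitates: kinesin-1 chains, translation factors, erythroid and skeletal muscle genes, higher with Kif5A, and endothelial and fibroblast genes, lower. Of all single genes tested, 10.6% were higher and 4.96% lower without overlap, and the lists were given no test, so the 6 are described only. Of 13 endothelial genes 2 had a positive ratio (median log2 -0.95), and 3 were lower at an unadjusted p under 0.05: Egfl7, Esam, a junction protein at 114, 53.8 and 51.1 CPM with Kif5A and 151, 222 and 100.3 CPM with IgG, and Cdh5, named after its values were seen. The list median was -0.53 without IgG replicate 3. Its sum was 639, 582 and 521 CPM with Kif5A, 904, 1007 and 1018 with IgG and 458, 466 and 364 CPM in input, so both precipitates lay above input. Of 7 erythroid genes 6 had a positive ratio (median 1.03; 0.51 without Kif5A replicate 2), and their sum was 767, 726 and 675 CPM with Kif5A, 368, 288 and 436 with IgG and 1687, 1666 and 1691 CPM in input. Hba-a1, an alpha globin with a near copy, stood at 270.01, 217 and 252 CPM with Kif5A, 115, 114 and 116 with IgG and 507, 513 and 743 CPM in input. Skeletal muscle genes went the same way, with 10 of 13 positive (median 0.38; 0.63 without Kif5A replicate 3 or IgG replicate 1, 0.70 without IgG replicate 2) and a sum of 548, 787 and 657 CPM with Kif5A, 429, 515 and 414 with IgG and 952, 1093 and 886 CPM in input. Ckm, muscle creatine kinase, stood at 135, 159.8 and 131 CPM with Kif5A and 45.1, 79.6 and 74.3 CPM with IgG. The part of blood, vessel, muscle and fat RNA in the ratios of axonal genes was not tested.

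**Figure D4:**
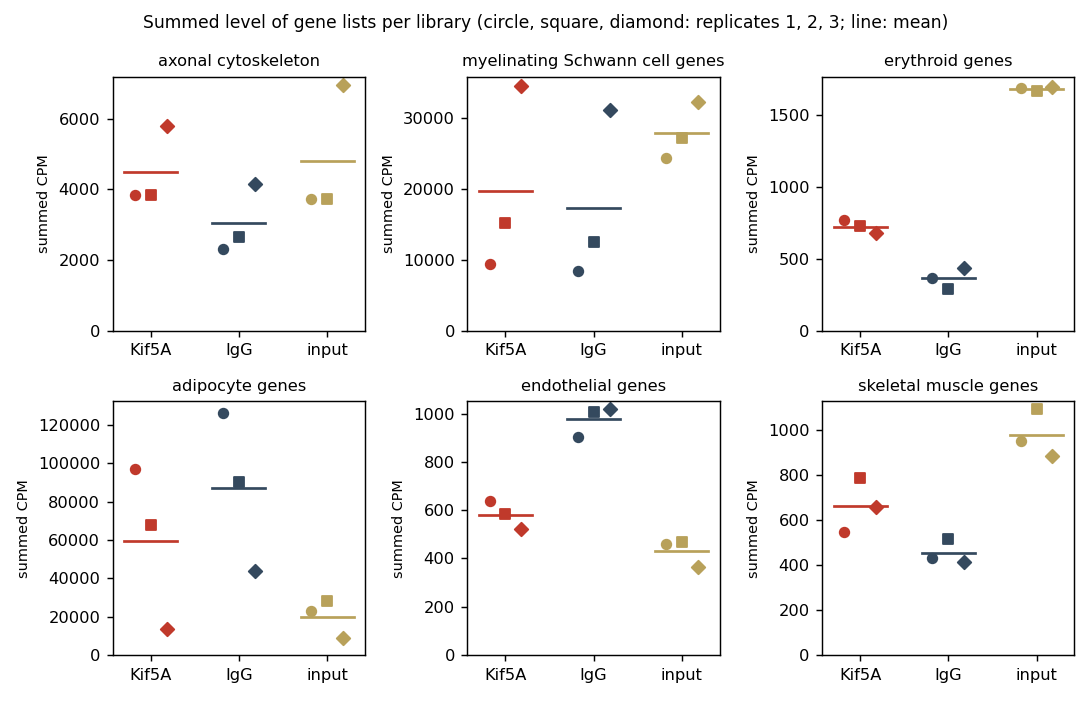
Summed level in CPM (y axis, from 0) of 6 gene lists in the Kif5A (red), IgG (dark blue) and input (ochre) libraries; symbols mark replicate numbers 1, 2 and 3 and the line is the mean of 3 libraries. Endothelial sums are 521 to 639 with Kif5A and 904 to 1018 with IgG, erythroid sums 675 to 767 and 288 to 436, and the diamonds of replicate 3 stand apart in the Schwann cell and adipocyte panels.

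Of 23 fibroblast genes 10 had a positive ratio (median log2 -0.19). Without overlap, 6 were lower and 0 higher, against 4.96% lower and 10.6% higher of all genes tested. The summed level of the fibroblast genes was 23830.2, 26057 and 21468 CPM with Kif5A, 26871, 30806 and 26077 with IgG and 38076, 41622 and 19065 CPM in input, lower in each Kif5A library than in each IgG library, and 0 members had an unadjusted p under 0.05. Macrophage genes (14 of 18, median 0.15), nonmyelinating Schwann cell genes (7 of 13, median 0.01) and perineurial genes (4 of 7, median 0.24) had 0 members at an unadjusted p under 0.05, and the same held for the 5 mast cell genes, of which 2 were positive. Of 6 neutrophil genes 2 were positive (median -1.52), with 1 higher, Mmp9. Pericyte and smooth muscle genes (3 of 11 positive, median -0.20) had 1 lower, Rgs5. Lymphocyte genes (3 of 6 positive, median 0.24, but -0.21 without IgG replicate 1 and 2.78 without IgG replicate 2) had 1 higher, Cd4, the coreceptor of helper T cells, at 2.93, 1.21 and 1.39 CPM with Kif5A and 1.07, 1.8 and 1.14 CPM in input with no IgG count. Nuclear-retained RNAs (3 of 7 positive, median -0.26, but 0.24 without Kif5A replicate 3 and -1.12 without Kif5A replicate 1) had 1 lower, Snhg11, at 126, 246 and 42.8 CPM with Kif5A, 574, 594 and 265 with IgG and 97.4, 143 and 17.5 CPM in input.

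**Figure D5:**
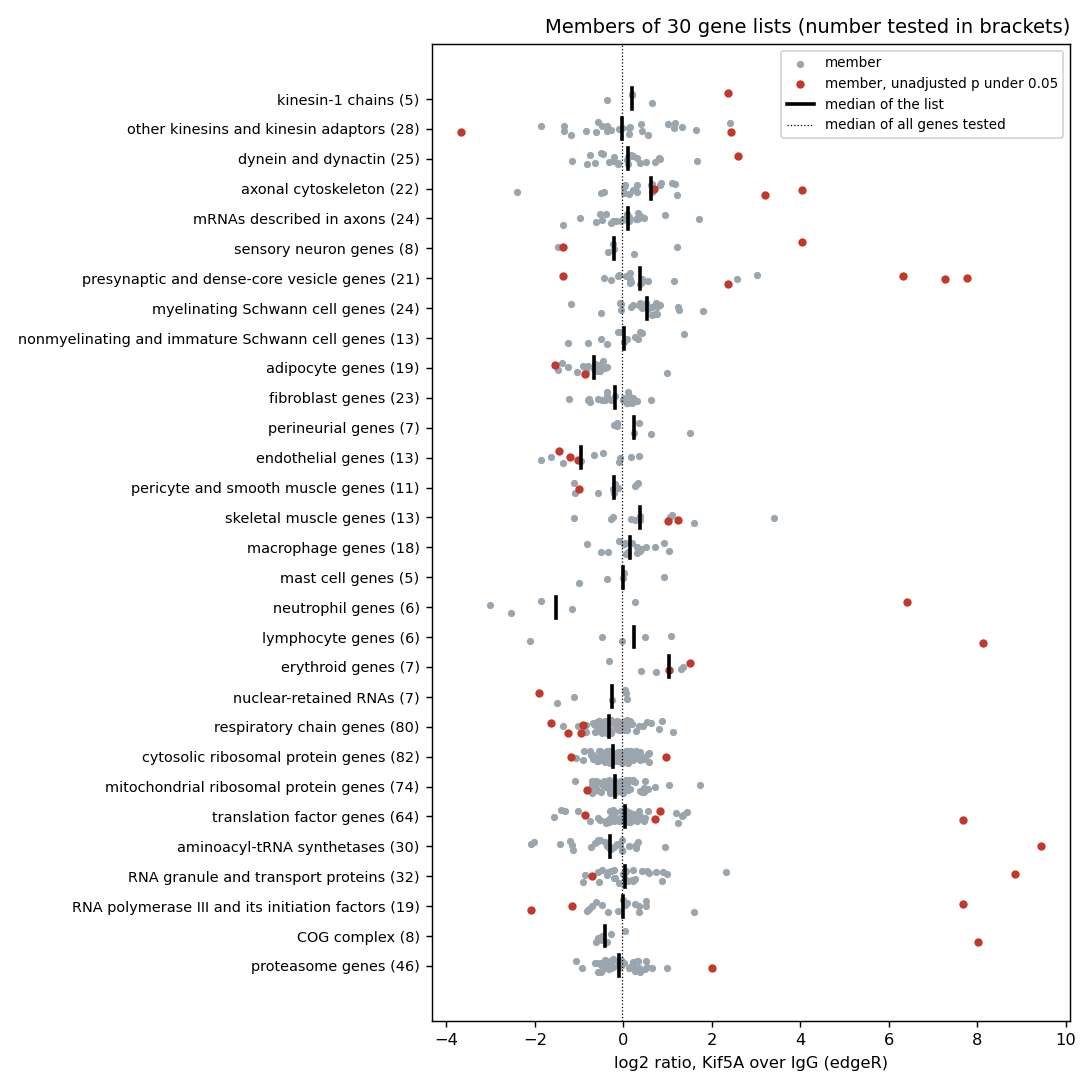
Log2 ratio of Kif5A over IgG (x axis) of the tested members of 30 gene lists, 1 row per list with the number tested in brackets; red points have an unadjusted p under 0.05, black bars are list medians and the dotted line is the median of all genes, -0.035. The medians of axonal cytoskeleton (0.63), myelinating Schwann cell (0.53) and erythroid genes (1.03) lie to the right of it, and those of adipocyte (-0.67) and endothelial genes (-0.95) to the left.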

How the data were processed

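Per the file headers, the deposited sciatic nerve table gives raw counts per Ensembl transcript for 9 libraries, and, made by the authors, a log2 fold change, p-value and false discovery rate for each. The submitters' processing notes name CASAVA 1.8.2, edgeR and mm10 (GRCm38). Aligner, counter, annotation release and use of strand were not given in the sources used here, so overlapping genes and antisense partners may share reads. The 266 rows without a gene name held 0.138% to 0.195% of a library's counts and were left out. Members of near-identical families (globins, tubulins, ribosomal proteins) are uncertain to the extent that counting could split them.

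Counts were tested as deposited, per transcript and summed per gene name, in the 6 precipitates alone with edgeR 4.0.16 in R 4.3.3 (TMM scaling with factors from 0.956 to 1.06, default filter on low counts, robust quasi-likelihood test, Benjamini-Hochberg adjustment, threshold 0.05). Transcript usage was tested with edgeR's diffSpliceDGE at the gene level. Two-sided p-values come from these fits, and n = 3 libraries per group throughout. Standard errors (SE) were computed as the size of the log2 ratio divided by the square root of the F statistic of the test. For genes near 0 in IgG the SE therefore depends on the prior count, as the ratio does. The 15 alternatives included DESeq2 1.42.0, limma-voom (limma 3.58.1), other scalings, no filter, the replicate number as a block and each library left out in turn. Scripts were tested on simulated data. Levels in CPM are relative to the named total alone. A gene without an IgG count is given a bound against 3 counts over the group, and one with 1 to 3 counts the ratio with its exact 95% Poisson interval; both describe counting error alone, because amplified reads that lack molecular identifiers are not separate molecules. Positions and transcript classes are from GENCODE M21, where 18688 of the 18830 named transcripts were found.

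The members, the 30 gene lists and the tests were chosen with earlier results of these data known. Named are 8 genes taken always (the Kif5 and kinesin light chain genes measured, Ncl, Kpnb1 and Mtor), the 12 higher and 8 lower genes with the smallest p among those whose higher group averaged at least 5 CPM without overlap, 2 members of each list by the smallest p, 6 genes with no transcript in the dorsal root table, 8 transcripts by the smallest p and 6 genes by the p of transcript usage. Predicted genes were counted, not named, and 1 of the 8 lower genes and 1 list member are not reported here. Gm13715, Rbm5, Arsa and Adipor2, named beside small counts, lie outside the rule and were chosen after their values were seen.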

Additional observations from a re-analysis of the deposited data

How the results depend on the processing

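The count of 0 genes past the threshold held in every edgeR and limma-voom fit of the 6 precipitates, the 6 fits with 1 library left out among them, with smallest adjusted p-values from 0.172 to 0.561 with a library left out. It was 264 with DESeq2 and 1 with all 9 sciatic nerve libraries. The count of 0 transcripts became 527 with DESeq2 and was 0 in every other fit. With the replicate number as a block, 0 genes, 0 transcripts and 0 genes for transcript usage were called. The labels do not say that same-numbered libraries share animals, so the numbers were not taken to pair libraries. Deviations from the group means of same-numbered precipitates correlated at 0.105, 0.049 and 0.176, which cannot show that the libraries are unpaired. Of the 6 libraries, 5 correlated best with their own number. Summed adipocyte genes fell and summed myelinating Schwann cell genes rose from replicate 1 to replicate 3 in both kinds of precipitate. The 119 genes called for transcript usage became 208 without the filter and 282 with all 9 libraries, and between 0 and 297 with 1 library left out; the cause was not tested. Of 1239 values of single genes under the alternatives, 1205 kept their direction and side of the threshold and 31 passed it, 30 with DESeq2 and 1, Brf2, with all 9 libraries. The log2 ratio of Klc1, -0.37, was 0.05 with limma-voom and 0.07 with the replicate block, and between -0.80 and 0.67 with 1 library left out; it was positive without IgG replicate 1. Of 450 medians of the 30 lists under the alternatives, 76 moved by at least 1 SD of the medians of the single Kif5A libraries. Depth limits the genes near 0 in IgG: their fitted ratios, and the standard errors computed from these, depend on the prior count. The standard errors had a median of 1.43 on the log2 scale among the 3148 genes of lowest level and 0.37 among the 3149 of highest.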
